A study of Mus musculus with 24 samples.

Results

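Potassium channel genes of the mouse were followed across 5 histone marks in N1E115 neuroblastoma cells at 20% and 4% oxygen. The members were all protein-coding genes in the RefSeq gene table (GRCm38.p6, which is mm10) whose symbol starts with Kcn, further letters and a number. The pattern matched 93 genes. 1 of them was left out, which gave 92 members of 21887 protein-coding genes on chromosomes 1 to 19, X and Y. They fall into 20 subfamilies, here grouped into 30 voltage-gated pore genes (Kcna to Kcnd, Kcnh and Kcnq), 10 silent modifier pores (Kcnf, Kcng, Kcns, Kcnv), 8 pores gated by calcium or sodium (Kcnma, Kcnn, Kcnt, Kcnu), 15 inward rectifiers (Kcnj), 13 leak channels with 2 pore domains per subunit (Kcnk) and 16 auxiliary subunits (Kcnab, Kcne, Kcnip, Kcnmb). Kcnu1 is placed among the pores gated by calcium or sodium by family, and not by its gating. The choice of members used symbols alone and no measured value. As a comparison set, 40 genes of voltage-gated sodium and calcium channels were described in the same way.

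N1E115 is an established mouse neuroblastoma line, and the cells of this study are labelled as positive for NOS1, the neuronal nitric oxide synthase. Cultures were kept for 3 days at 20% or at 4% oxygen, and chromatin immunoprecipitation with sequencing (ChIP-seq) was done with antibodies against H3K4me3, H3K27ac, H3K4me1, H3K36me3 and H3K27me3. Each mark had 2 libraries per oxygen level, 20 libraries in all, here called set 1 and set 2; the 4 inputs were not analysed here. All groups are the same line and differ, by their labels, only in oxygen, and the labels do not say whether paired libraries are separate cultures; p-values therefore measure only the spread between these libraries, which may be technical.

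Potassium channels let potassium leave the cell, which sets the resting potential, ends the action potential and tunes the firing rate. Voltage-gated pores open on depolarization, inward rectifiers and leak channels act near rest, calcium-activated pores couple calcium entry to repolarization, and auxiliary subunits alter gating or transport to the membrane. Some of these channels, among them the leak channel Kcnk3 and the large-conductance channel Kcnma1, are known for a part in oxygen sensing. H3K4me3 is the mark of promoters, H3K27ac of active promoters and enhancers, and H3K4me1 mainly of enhancers. H3K36me3 is laid down over transcribed gene bodies. H3K27me3, laid down by Polycomb repressive complex 2, covers silenced genes, and a promoter with both H3K4me3 and H3K27me3 is called bivalent.

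The deposited lists of H3K4me3, H3K27ac and H3K4me1 held 26489 to 126503 peaks per library, without read counts, so that the depth behind them is unknown. The island lists of H3K36me3 and H3K27me3 held 17535 to 34471 islands with 8479517 to 25048785 reads in islands per library. Of 14 markers of sympathetic neuroblastoma, 13 had an active promoter in all 4 libraries of each mark and 12 carried H3K36me3 over the gene body. Nos1, which belongs to these 14, had no promoter mark at its RefSeq start and carried H3K36me3 over its body. Of markers of other cell types, 0 of 8 for glia, 0 of 5 for immune cells, 0 of 4 for endothelium, 0 of 3 for liver and 1 of 4 for muscle (Myog) were active in all 4. The headers name 3 flow cells. Set 2 was run on 1 of them. Set 1 was split between the other two, by oxygen level except for H3K4me1, so in that set oxygen and flow cell cannot be told apart for 4 of the 5 marks.

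Promoter states came from the peaks within 1000 bp of the transcription start. A mark counted where it covered at least 200 bp, and the state of an oxygen level was counted only where both of its libraries gave it. The states were active (H3K4me3 and H3K27ac, no H3K27me3), H3K4me3 without H3K27ac, bivalent, H3K27me3 only, and neither, which means no H3K4me3 and no H3K27me3 whatever the H3K27ac. The RefSeq promoter table gave a start for 68 members. In 9 of these it lies more than 10 kb inside the gene record, so that the state is that of an internal start: Kcna2, Kcnab1, Kcnh2, Kcnip3, Kcnip4, Kcnj1, Kcnj3, Kcnj12 and Kcnmb3. For the other 24, an end of the gene record was taken, which need not be the promoter. Where a gene had several starts, and between the ends, the position with the most H3K4me3 over the 4 libraries was used. Ties went to the position with the most H3K27me3. The same rule held for all genes. The choice of position thus used marks that also give the state. At 20% oxygen 13 members were active, 6 had H3K4me3 without H3K27ac, 5 were bivalent, 18 had H3K27me3 only and 28 had neither; the libraries differed at 22. At 4% oxygen the counts were 18, 6, 7, 18 and 30, with 13 differing. Active members numbered 10 at 20% and 11 at 4% of the 68 with a RefSeq start, and 3 and 7 of the 24 without one. In shares at 20% oxygen, 14.1% of members were active against 43.2% of all genes, 5.43% were bivalent against 1.44%, and 19.6% had H3K27me3 only against 10.1%. At 4% oxygen the shares were 19.6% against 42.6% for active, 7.61% against 2.29% for bivalent and 19.6% against 10.3% for H3K27me3 only. Kcna7, Kcne1, Kcnh2 and Kcnt1 were counted as active only at 4% because their 20% libraries differed from each other.

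60 members held 1 state in all 4 libraries. In 12 of these the promoter was active, among them Kcnab1, Kcnab2, Kcnc4, Kcnh4, Kcnip3, Kcnj6, Kcnk3, Kcnma1, Kcnn3 and Kcnq5. Kcnq5 encodes a subunit of the M-current, Kcnj6 the G protein-gated rectifier GIRK2, and Kcnma1 the pore of the BK channel. A further 15 held H3K27me3 only: Kcna1, Kcna2, Kcna5 and Kcna10 of the Shaker-type channels, Kcnc2, Kcng1, the inward rectifiers Kcnj1, Kcnj5, Kcnj10 and Kcnj11, the leak channels Kcnk2, Kcnk10 and Kcnk16, and the auxiliary Kcnip1 and Kcnmb1. The 4 that stayed bivalent were Kcnh3, Kcnj4, Kcnk5 and Kcnk6, Kcnk13 and Kcnmb2 had H3K4me3 without H3K27ac, and 27 had neither H3K4me3 nor H3K27me3. Of the members named here, Kcna1, Kcng1, Kcnh3, Kcnj11, Kcnk3 and Kcnk6 lack a RefSeq start. Their state is that of an end of the gene record. Among the 40 sodium and calcium channel genes, 11 were active, 1 bivalent and 9 under H3K27me3 only in all 4 libraries. Over all genes these counts were 8879, 254 and 1953.

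**Figure D1:**
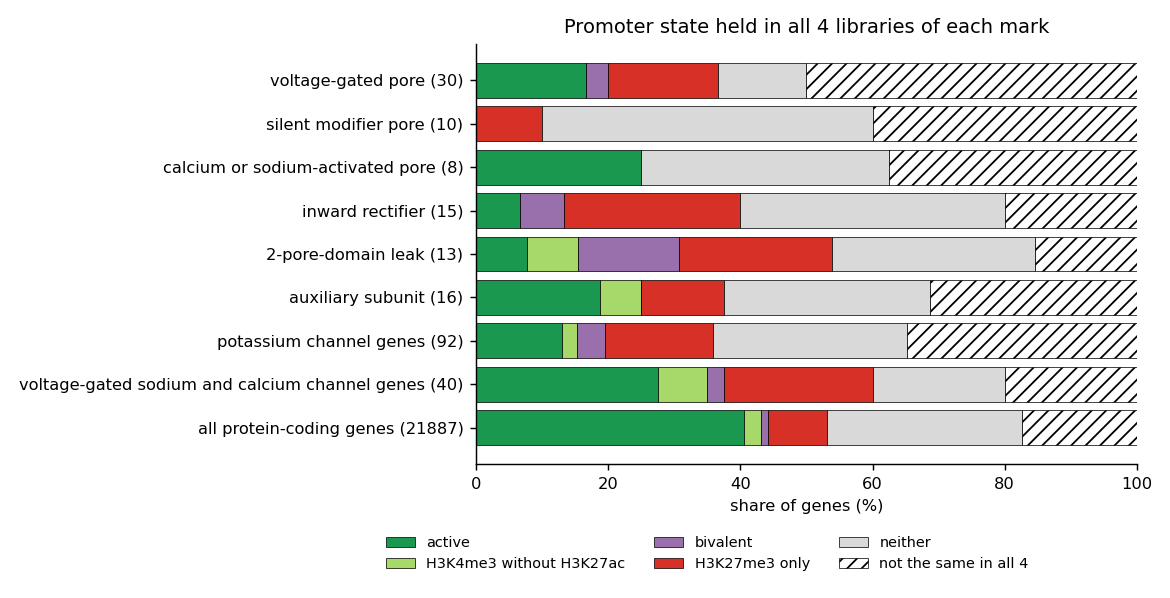
Stacked bars give the share of genes (%) with the same promoter state in all 4 libraries of each mark, for the classes of potassium channel genes, all 92 members, 40 sodium and calcium channel genes and all 21887 protein-coding genes, with the number of genes in brackets. The active part (green) is shorter in the bar of all members, 12 of 92, than in that of all genes, and no silent modifier pore is active.

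The mix of states is given by class. Of the voltage-gated pores, 5 of 30 were active in all 4 libraries and 5 under H3K27me3 only. Of the pores gated by calcium or sodium, 2 of 8 were active (Kcnma1 and Kcnn3) and 0 of 8 were under H3K27me3. Of the inward rectifiers, 1 of 15 was active (Kcnj6) and 4 were under H3K27me3 only. Of the leak channels, 1 of 13 was active (Kcnk3), 2 were bivalent and 3 under H3K27me3 only. Of the silent modifier pores, which do not conduct alone, 0 of 10 were active. Of the auxiliary subunits, 3 of 16 were active: the beta subunits Kcnab1 and Kcnab2 and the calcium-binding Kcnip3. The genes are not replicates, and differences between these classes were not tested.

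Promoter sequences are shown for 4 members, to set the letters beside the states: the 2 active members with the most H3K4me3 base pairs summed over the gene and 10 kb either side, and the 2 H3K27me3-only members with the highest covered share of H3K27me3 over that stretch. The stretch differs in length between genes. That of Kcnh4 also holds Rab5c, Hcrt and Ghdc, and that of Kcnab1 also holds Ssr3. The start of Kcnab1 in the table is an internal one, 159.8 kb inside the record. They run from 250 bases before to 50 after the RefSeq start, 5′ to 3′ on the gene's strand, with every CG dinucleotide in capitals (RefSeq, GRCm38.p6). Kcnab1 lies at chr3:65108764-65109063 on the plus strand, Kcnh4 at chr11:100759729-100760028 on the minus strand, Kcnmb1 at chr11:33962763-33963062 on the plus strand and Kcna5 at chr6:126535506-126535805 on the minus strand.
Kcnab1, active: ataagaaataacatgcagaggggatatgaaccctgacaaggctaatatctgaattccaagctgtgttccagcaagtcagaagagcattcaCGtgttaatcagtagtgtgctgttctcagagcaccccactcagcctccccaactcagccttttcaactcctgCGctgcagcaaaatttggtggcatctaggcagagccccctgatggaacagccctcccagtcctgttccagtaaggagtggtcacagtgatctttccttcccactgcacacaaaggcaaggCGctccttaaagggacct
Kcnh4, active: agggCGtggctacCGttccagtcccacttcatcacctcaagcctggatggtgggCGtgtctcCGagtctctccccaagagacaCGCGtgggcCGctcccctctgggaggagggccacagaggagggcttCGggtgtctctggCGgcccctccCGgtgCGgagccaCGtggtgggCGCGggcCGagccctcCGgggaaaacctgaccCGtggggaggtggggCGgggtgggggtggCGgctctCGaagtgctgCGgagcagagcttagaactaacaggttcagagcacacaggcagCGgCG
Kcnmb1, H3K27me3 only: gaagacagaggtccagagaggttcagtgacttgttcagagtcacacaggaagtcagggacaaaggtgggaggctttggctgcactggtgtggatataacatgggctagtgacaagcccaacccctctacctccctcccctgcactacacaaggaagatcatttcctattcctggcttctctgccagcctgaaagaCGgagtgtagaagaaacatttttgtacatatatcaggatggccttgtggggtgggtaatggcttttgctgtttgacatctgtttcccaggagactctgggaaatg
Kcna5, H3K27me3 only: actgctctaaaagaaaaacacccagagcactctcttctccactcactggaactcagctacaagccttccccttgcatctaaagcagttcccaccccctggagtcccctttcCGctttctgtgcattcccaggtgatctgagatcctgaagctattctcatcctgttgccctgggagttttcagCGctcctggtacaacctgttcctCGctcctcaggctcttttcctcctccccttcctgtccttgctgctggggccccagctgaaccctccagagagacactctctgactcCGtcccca
These windows held 3 CG in Kcnab1, 23 in Kcnh4, 1 in Kcnmb1 and 4 in Kcna5. Over the members with a RefSeq start, the median was 23 CG in the 9 active promoters (3 to 36) and 5 in the 12 under H3K27me3 only (0 to 31), against 13 over 21263 promoters of protein-coding genes. Kcnab1 (at its internal start) and Kcnq5, with 3 CG each, were active at CG-poor windows, and Kcna2 with 31 CG and Kcnj10 with 21 were under H3K27me3 at CG-rich ones. The 2 bivalent promoters, Kcnj4 and Kcnk5, held 41 and 26 CG. Where a gene had several starts, the member promoter was chosen by its marks, while the 21263 promoters were not chosen. A core of the hypoxia response element, searched as ACGTG or GCGTG on both strands with overlaps allowed, was found in 33 of 68 member promoters (48.5%) and in 49.3% of all. A match is a description of letters only.

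The bodies of potassium channel genes carried little H3K36me3 and more H3K27me3 than gene bodies in general. H3K36me3 islands covered at least 25% of the body in all 4 libraries in 9 of 92 members (9.78%), against 38.3% of all genes and 12 of 40 sodium and calcium channel genes. H3K27me3 did so in 22 of 92 members (23.9%), against 11.8% of all genes and 14 of 40 sodium and calcium channel genes. No member reached 25% in both marks, and 61 members reached it in neither. In bulk chromatin a lower cover cannot be told apart from fewer cells that carry the mark.

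The members under H3K36me3 included Kcnc4, Kcnh2, Kcnh4, Kcnj6, Kcnj12, Kcnj13 and Kcnj14. Islands covered 91.3% and 85.2% of the Kcnh4 body (chr11:100740378-100760115) at 20% oxygen and 89.3% and 89.3% at 4%. For Kcnh2 (chr5:24319589-24351684), the gene of the hERG channel that repolarizes heart muscle and also serves neurons, the body shares were 81.0% and 76.1% at 20% and 96% and 86.0% at 4%. Both genes were thus covered over most of their length in every library, and Kcnh2 lay higher in both 4% libraries. Kcnj13 was at 100% in every library, but it lies wholly inside Gigyf2, so this island cannot be assigned to the channel gene. Kcnj12 had neither H3K4me3 nor H3K27me3 at its RefSeq start, although H3K27ac was there in every library (693 and 800 bp at 20%, 899 and 954 bp at 4%). It ranked second among members in H3K27ac and next after Kcnh2 in H3K4me1. Its start in the table, like that of Kcnh2, is an internal one.

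The 22 members under H3K27me3 were Kcna2, Kcna5, Kcna6 and Kcna10, Kcnc2, Kcnd3, Kcng1 and Kcng4, Kcnh1, Kcnh3 and Kcnh5, Kcnip1 and Kcnmb1, Kcnj1, Kcnj4, Kcnj5, Kcnj8, Kcnj10 and Kcnj11, and Kcnk5, Kcnk10 and Kcnk16. The Shaker-type subfamily Kcna had 4 of 8 genes in this group and a mean window cover of 63.8%. Of Kcnj it took 6 of 15, of Kcnh 3 of 8, of Kcng 2 of 4 and of Kcnk 3 of 13. Subfamilies without such a member included Kcnab, Kcnb, Kcnn, Kcnq, Kcne and Kcns, and none of the 8 calcium or sodium-activated pores carried either broad mark over the body. The same subfamily could hold both kinds: Kcnh2 and Kcnh4 were under H3K36me3 while Kcnh1, Kcnh3 and Kcnh5 were under H3K27me3, and Kcnc4 differed in the same way from Kcnc2. In the other subfamilies the leading members stayed under the 25% line over the body in at least 1 library. Mean H3K36me3 body cover was 23.6% at Kcnn3, 22.9% at the beta subunit Kcnab2, 21.0% at Kcnd1, 17.4% at Kcnmb2 and 7.60% at Kcnma1. The Nphp4 record overlaps that of Kcnab2, so the cover there may not belong to the channel gene. Mean H3K27me3 body cover was 50% at Kcne1l, where 1 library at each oxygen level had 100% and the other 0, 34.8% at Kcnq3, 15.1% at the silent modifier Kcnf1 and 7.80% at Kcns1. With 10 kb either side the means were 58.5%, 36.3%, 38.5% and 36.1%, so that in Kcnf1 and Kcns1 most of the cover lay outside the body. Kcnk2 (lowest library 23.8%) and Kcnk1 (21.1%) lay just under the 25% line for H3K27me3, and Kcnk3 (21.0%) for H3K36me3.

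**Figure D2:**
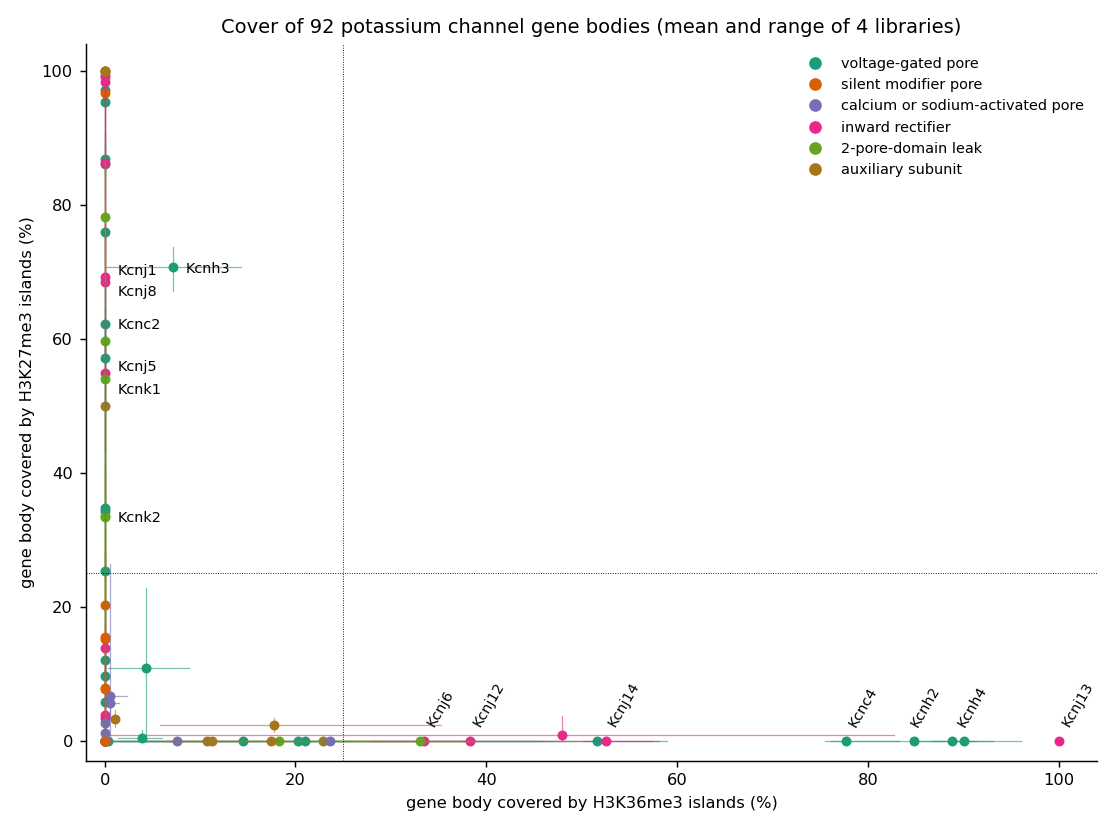
Each point is 1 of the 92 members, placed at the mean share of its body covered by H3K36me3 islands (x axis, %) and H3K27me3 islands (y axis, %), with lines for the range over 4 libraries, colours for the class and dotted lines at 25%. Points lie along the axes: Kcnh3, with mean H3K27me3 cover near 70.7%, is the labelled member that also has some H3K36me3. The Mcrs1 record overlaps that of Kcnh3, so this H3K36me3 may not belong to the channel gene.

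Several members that lie next to each other on a chromosome lay in stretches mostly covered by H3K27me3, though not always under a single island. Grouping members whose gene records lie within 350 kb of the next gave 12 groups with 28 members. On chromosome 6, Kcna5 (chr6:126532551-126535555), Kcna1 and Kcna6 span 208.3 kb, of which islands covered 90.7% and 94.2% at 20% oxygen and 88.0% and 92.2% at 4%. No H3K36me3 island lay in that span. The H3K27me3 cover was broken up: in set 1 at 20% the longest islands on Kcna5, Kcna1 and Kcna6 had 31800, 24800 and 23600 bp. In set 1 at 4% oxygen no H3K27me3 island lay on the Kcna1 body, so Kcna1 did not reach the body class. On chromosome 3, Kcna3, Kcna2 (chr3:107090883-107115005) and Kcna10 (chr3:107183143-107195721) lie beside Kcnc4 (chr3:107438298-107460287), 242.6 kb beyond Kcna10. H3K27me3 covered 95.9% and 100% of the Kcna2 body at 20% oxygen and 95.9% and 96.7% at 4%, and 100% of the Kcna10 body in every library, while the short Kcna3 body was at 0 in all 4. The longest H3K27me3 island on Kcna2 and on Kcna10 had the same length, 177000 bp, only in set 1 at 4% oxygen. The Kcnc4 body was at 75.5%, 76.0%, 83.2% and 76.0% for H3K36me3. Kcnip1, a calcium-binding partner of Kcnd channels, had 98.5% to 99.8% of its 364 kb under H3K27me3, and Kcnmb1, a BK channel subunit, lies inside it and shares the domain. These neighbours are therefore not independent observations.

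**Figure D3:**
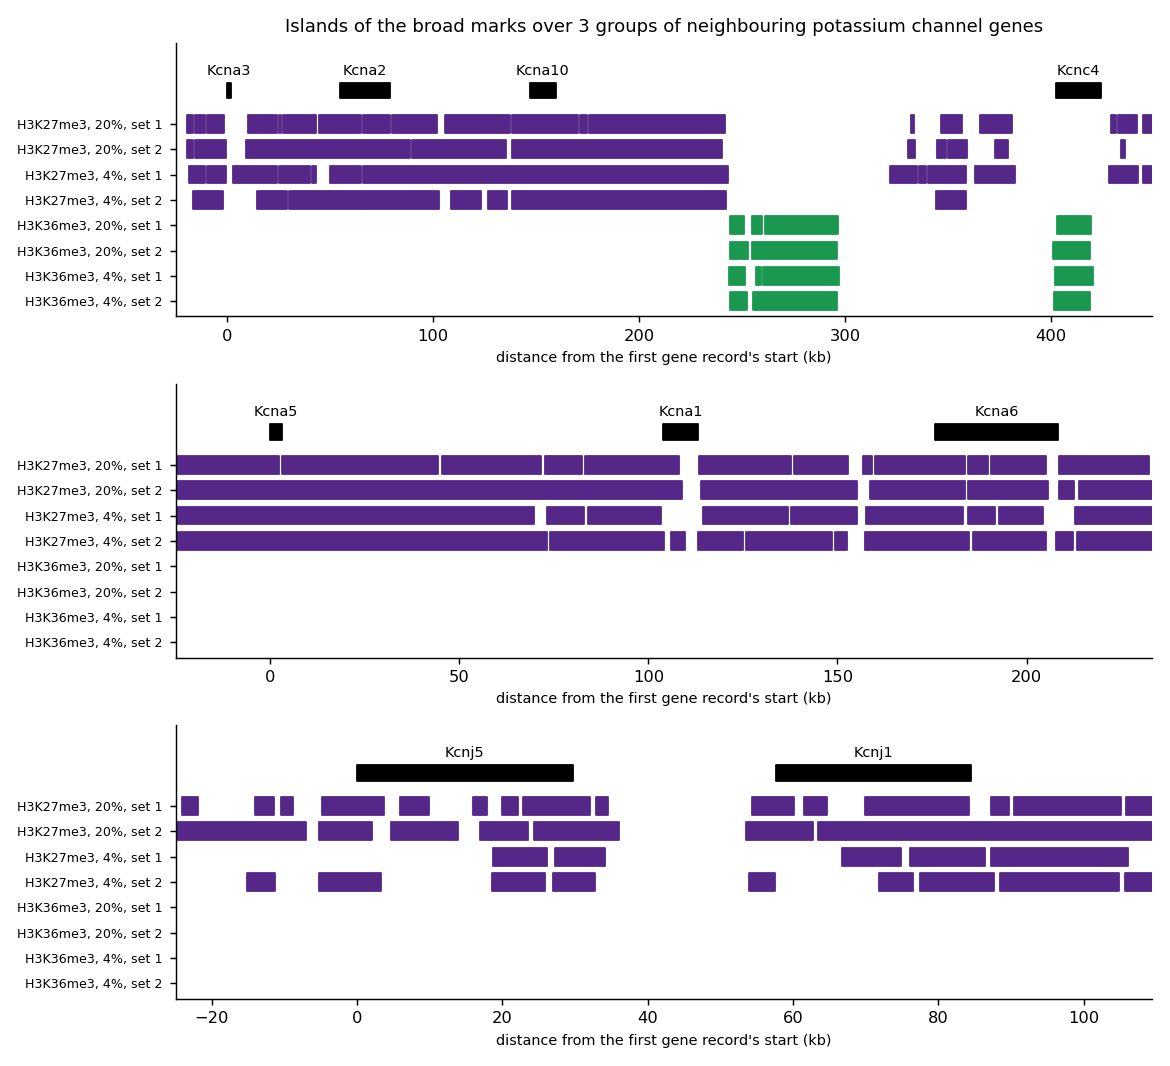
Horizontal bars show H3K27me3 islands (purple) and H3K36me3 islands (green) in each library over 3 groups of neighbouring members (black), by distance from the first gene record's start in kb. Kcna2 and Kcna10 lie under H3K27me3 and Kcnc4 under H3K36me3 in all 4 libraries, and islands cover less of the span from Kcnj5 to Kcnj1 at 4% oxygen.

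Of 11 genes for partners of these channels outside the Kcn names, 3 were active in all 4 libraries (Dpp6, Lrrc55 and Lgi1), 3 were under H3K27me3 only (Abcc8, Abcc9 and Lrrc52) and 4 had neither mark. Abcc8 encodes the sulfonylurea receptor SUR1 that joins Kcnj11 in ATP-sensitive channels, and both genes, which are neighbours, were under H3K27me3 only in all 4 libraries. Of the related Hcn channels, which carry the hyperpolarization-activated current, 2 of 4 were active in all 4 libraries (Hcn2 and Hcn4). Of 7 sodium-potassium pump genes 3 were active, among them Atp1b3, and of 7 cation-chloride cotransporters 3 were active, among them Slc12a2 and Slc12a5.

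The effect of oxygen was read gene by gene over the body and 10 kb either side, called the window. In 42 of the 92 members another protein-coding gene reached into the window, and in 9 another gene overlapped the body. With 2 libraries against 2 the smallest exact permutation p is 0.333, so no single member can pass a test on covered shares. The count given is that of members whose 4% libraries both lie above, or both below, both 20% libraries, beside the same share of all genes. For H3K4me1, 36 members lay lower at 4% and 0 higher, where 41.1% of all genes lay lower and 0.187% higher. The mean window share of the members was 6.46% and 5.16% at 20% oxygen and 3.07% and 3.23% at 4%, and over all genes 6.57% and 4.61% against 3.04% and 3.01%. The lower H3K4me1 of the members at 4% oxygen was thus near that of all genes.

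The widest gaps in H3K4me1 were at Kcnc4 and Kcnk3, with active promoters, and at Kcng4, Kcnj9 and Kcnk18, active in no library. The windows of Kcnc4, Kcng4 and Kcnj9 also hold Slc6a17, Adad2 and Igsf8, in that order. For Kcnc4, a Shaw-type voltage-gated channel, peaks covered 58.6% and 52.7% of the window at 20% oxygen and 30.1% and 37.8% at 4%. For Kcnk3, the leak channel TASK-1 (chr5:30588170-30625270), the shares were 28.5% and 26.3% against 18.4% and 16.6%. Kcng4, a silent modifier under H3K27me3, was at 18.6% and 23.2% against 1.34% and 5.91%. In these 3 members both 20% libraries were well above both 4% libraries. Kcnj9 (13.9% and 7.08% against 0.684% and 0.649%) and Kcnk18 (15.8% and 14% against 7.79% and 6.18%) completed the first 5. Kcnh2, which ranked second in H3K4me1, was at 54.1% and 43.9% against 37.6% and 38.4%. Kcnn3, the small-conductance calcium-activated channel SK3, did not separate: 26.5% and 28.4% against 23.4% and 28.4%.

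For H3K27ac, 11 members lay higher at 4% oxygen and 3 lower, where the background over all genes was 15.6% and 5.00%. Kcne4, an auxiliary subunit, went from 1.60% and 2.54% of its window at 20% oxygen to 5.88% and 9.39% at 4%, all of it outside the gene body. The leak channel Kcnk6, bivalent in all 4 libraries, was at 5.43% and 4.71% against 9.45% and 7.98%. Its body had H3K27ac in a single library, 3.25% in set 1 at 4% oxygen, and its window also holds Catsperg1 and Yif1b. Kcnj12 was at 30.6% and 32.8% against 35.9% and 34.5%. In these 3 the 4% libraries stood above the 20% libraries, for Kcnj12 by less than the 20% libraries differed from each other. Kcnn4, the intermediate-conductance calcium-activated channel, was at 4.80% and 5.76% against 7.38% and 7.29%, with none of it on the body, and Kcna7 at 8.07% and 10.9% against 13% and 12.0%. Lower at 4% were Kcnq1 (5.29% and 5.85% against 4.05% and 3.20%), Kcnh6 (13.1% and 12.6% against 8.78% and 12.4%) and Kcnmb4 (0.786% and 0.478% against 0.259% and 0). The window of Kcna7 also holds Ntf5 and Lhb, and that of Kcnh6 Ace3 and Dcaf7. The highest H3K27ac cover was at Kcnh2, 44.8% and 47.2% at 20% oxygen and 41.1% and 52.7% at 4%, with overlapping groups.

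For H3K4me3, 4 members lay higher at 4% oxygen and 6 lower, where the background was 3.08% and 11.2%. The highest H3K4me3 window cover was at Kcnk4 (24.8% and 26.2% at 20% oxygen, 22.9% and 30.4% at 4%), Kcnn1 (22.7% and 21.7%, 21.4% and 26.0%) and Kcnab3 (21.6% and 25.2%, 19.2% and 24.2%), none of which separated. These windows hold other genes, Esrra, Catsperz, Gpr137 and Bad beside Kcnk4, Arrdc2 and Ccdc124 beside Kcnn1, and Cntrob and Trappc1 beside Kcnab3. Peaks covered at most 1.88% of the Kcnk4 body, and its start had neither H3K4me3 nor H3K27me3 by the 200 bp line in any library. Among members that lay lower, the voltage-gated pore Kcnh4 had 22.1% and 23.6% of its window covered at 20% oxygen and 16.9% and 20.7% at 4%. The others named by gap were Kcnmb3, Kcne3, Kcnu1 and Kcnj9, and the 4 that lay higher were Kcns1, Kcnj12, Kcnj6 and Kcnj4. For Kcnj6 the shares were 0.848% and 0.869% against 1.37% and 1.25%, the higher pair being the 4% libraries.

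For H3K36me3, 8 members lay higher at 4% oxygen and 7 lower, where the background was 6.04% and 12.9%. The widest gap was at Kcnk7, an electrically silent leak channel gene (chr19:5704471-5707984), where islands covered 50.7% and 56.7% of the window at 20% oxygen and 10.8% and 11.9% at 4%. Its groups stood far apart, but the gene record overlaps Ehbp1l1, and only 34 and 27 reads fell on its body at 20% oxygen and 0 and 0 at 4%. Kcnk3 was at 19.6% and 13.7% against 31.9% and 20.7%, and Kcnh2 at 58.0% and 54.9% against 63.7% and 60.3%, both higher in both 4% libraries. For Kcnab3 (27.6% and 26.8% against 33.5% and 34.3%) and Kcnk4 (18.6% and 19.2% against 33.6% and 22.0%) no island lay on the body in any library, so the cover was that of the flanks, which hold other genes.

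**Figure D4:**
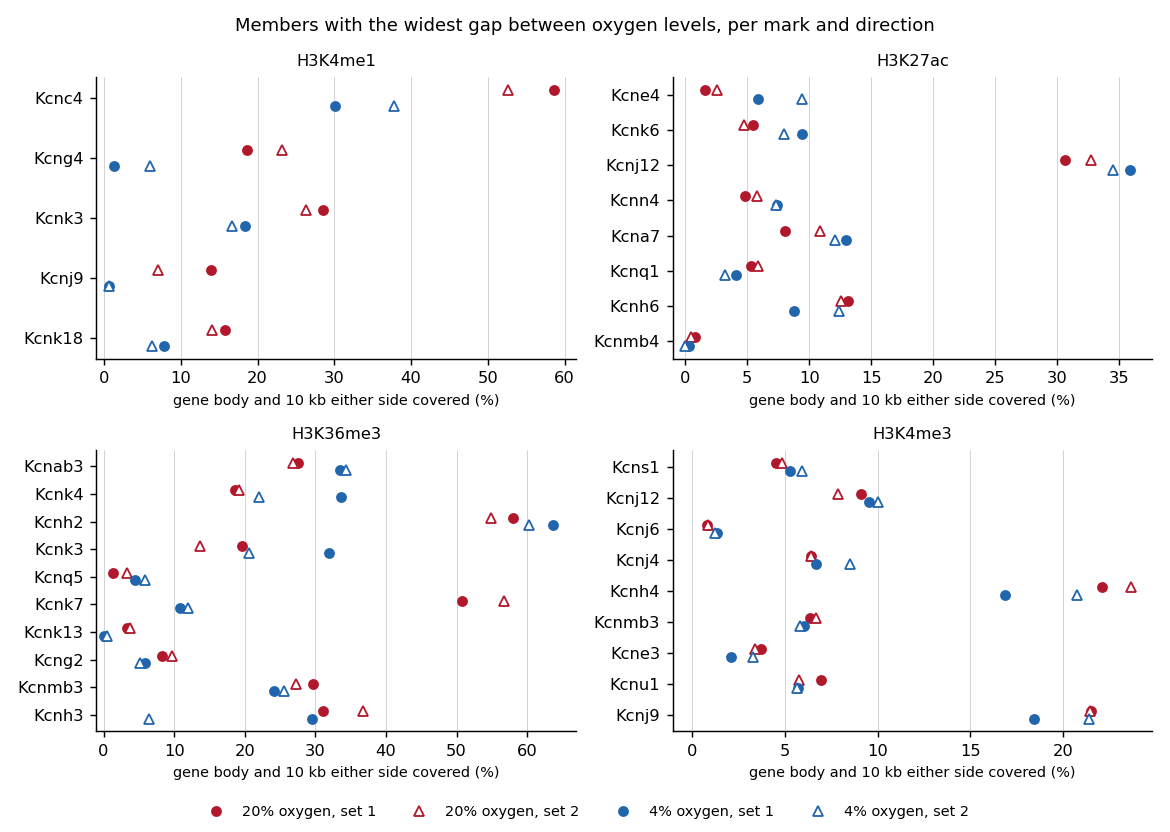
Points give the window share covered (%) in each library for the members with the widest gap between oxygen levels in H3K4me1, H3K27ac, H3K36me3 and H3K4me3, red for 20% and blue for 4% oxygen, circles for set 1 and triangles for set 2. All H3K4me1 members shown are lower at 4%, with Kcnc4 at 30.1% and 37.8% there.

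Read counts of H3K36me3 islands, shared out to gene bodies by overlap, could be tested for 28 members among 11146 genes. With edgeR's quasi-likelihood test and Benjamini-Hochberg adjustment over all genes, 0 members passed an adjusted p of 0.05, and 0% of all genes did. At an unadjusted p under 0.05 there were 2 members and 681 genes. With DESeq2, which took in every gene with any read and not only the 11146, 2 members and 661 genes passed. These 2, named after their values were seen, were Kcnip4 and Kcnj6. Kcnip4, a partner of Kcnd channels, had 38.1 and 35.9 RPM (reads scaled to all reads shared out to genes in a library) at 20% oxygen and 19.3 and 19.9 RPM at 4%. Both 4% libraries were lower, with a log2 difference of -0.90 and an adjusted p of 0.606 in edgeR and of -0.91 and 4.13e-07 in DESeq2. Islands covered at most 1.35% of its body, so these reads come from a small part of the gene. Kcnj6 had 248.2 and 222.7 against 290.5 and 289.1 RPM, a log2 difference of 0.32 in edgeR (adjusted p 0.814).

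For H3K27me3, 10 members lay higher at 4% oxygen and 6 lower, where the background over all genes was 8.15% and 1.83%. Windows without any H3K27me3 in all 4 libraries cannot separate, and these were 36 of 92 members but 14105 of 21887 genes. The 2 sets of shares are therefore not on a like footing. The members' mean window share was 24.4% and 27.6% at 20% oxygen and 26.4% and 25% at 4%, with overlapping groups, and over all genes 11.7% and 12.8% against 14.1% and 12.6%. The difference in the members' mean, 4% minus 20%, was 2.02 points in set 1 and -2.62 points in set 2.

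The widest gaps downward were at 2 neighbouring inward rectifiers, Kcnj5 (chr9:32314706-32344380) and Kcnj1 (chr9:32372418-32399197), whose records lie 28.0 kb apart. Kcnj5 encodes the G protein-gated subunit GIRK4, and Kcnj1 the kidney channel ROMK. Islands covered 57.8% and 76.3% of the Kcnj5 window at 20% oxygen and 28.6% and 43.9% at 4%. For Kcnj1 the shares were 63.7% and 85.9% against 55.1% and 52.2%. In both genes each 4% library lay below each 20% library, which follows from choosing members by this gap. Of the 84.5 kb from the start of the Kcnj5 record to the end of the Kcnj1 record, islands covered 54.6% and 70.9% at 20% oxygen and 36.5% and 37.5% at 4%. Both starts, that of Kcnj1 an internal one, remained under H3K27me3 only in all 4 libraries, and no H3K36me3 island lay on either gene. Island reads in the Kcnj5 window were 109.2 and 128.9 RPM at 20% oxygen and 44.7 and 69.3 at 4%, and in the Kcnj1 window 137.4 and 170.8 against 81.8 and 86.9. These reads come from the same islands and are not a separate measurement.

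Upward, the widest gap was at Kcnc2, a fast delayed rectifier of fast-spiking neurons (chr10:112269898-112466304), where islands covered 49.5% and 55.8% of the window at 20% oxygen and 67.2% and 77.9% at 4%. Both 4% libraries lay above both 20% libraries. Kcng2 was at 10.9% and 10.9% against 21.8% and 19.2%, Kcnj11 at 84.6% and 87.1% against 94.6% and 94.6%, Kcnh3 at 45.4% and 48.0% against 53.8% and 55.3%, and Kcnh5 at 55.0% and 57.5% against 61.4% and 59.8%. Island reads in the Kcnh5 window overlapped between the groups: 670.3 and 587.6 RPM at 20% oxygen against 590.2 and 634.6 at 4%. Their log2 difference was -0.17 in edgeR (adjusted p 0.790). The Kcnh5 start was under H3K27me3 only except in set 1 at 4% oxygen, where it had neither H3K4me3 nor H3K27me3. Members with a lower cover also included Kcnj2, Kcnip1 and Kcna1, the last by 0.682 points between its nearest libraries. Kcnq3, an M-current subunit, did not separate: 14.4% and 47.5% at 20% oxygen against 14.2% and 69.0% at 4%, with the set 2 libraries high at both levels.

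**Figure D5:**
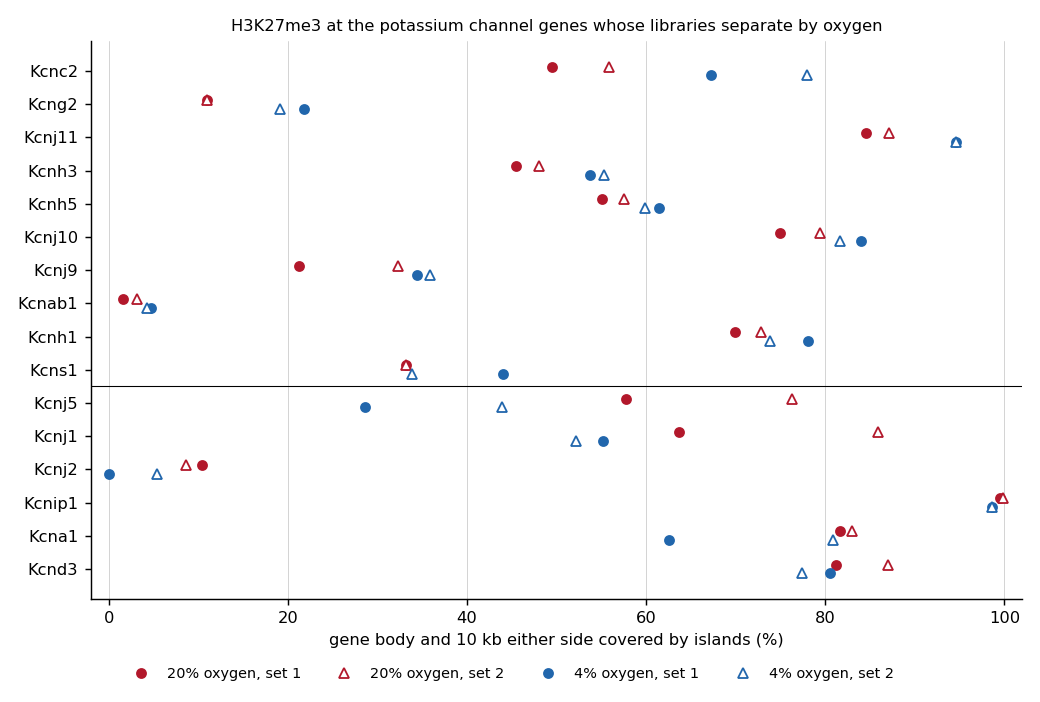
Points give the share of the window (%) under H3K27me3 islands in each library for the 16 members whose libraries separate by oxygen, the 10 above the line higher and the 6 below it lower at 4% oxygen (red 20%, blue 4%, circles set 1, triangles set 2). Kcnj5, Kcnj1 and Kcnc2 show the widest gaps, and Kcna1, Kcnd3, Kcns1 and Kcnh1 nearly touch.

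Island reads of H3K27me3 in the window could be tested for 51 members among 6675 genes. In edgeR's quasi-likelihood test 0 members and 0% of all genes passed an adjusted p of 0.05. At an unadjusted p under 0.05 there were 11 members and 668 genes. DESeq2 called 11 members, 2 higher and 9 lower, and 692 genes in both directions together. It took in every gene with any read, a wider set than edgeR's, so its counts are not shares of the 51 and 6675. Some H3K27me3 lay in the window of 56 members and 7782 genes in at least 1 library. The calls over all genes are not split by direction here, so the 9 lower calls stand without a background. The log2 difference was -1.19 for Kcnj5 and -0.99 for Kcnj1, each with an adjusted p of 0.477 in edgeR, and -1.17 (0.00366) and -0.97 (5.26e-05) in DESeq2. With the covered length as an offset, the edgeR value for Kcnj5 was -0.31, and -0.52 for Kcnj1. DESeq2 also called Kcna1, Kcna5, Kcnd2, Kcnd3, Kcnip1, Kcnk10 and Kcnmb1 lower and Kcng2 higher. With the covered length as an offset Kcng2 was at -0.088, the opposite direction. Kcnt1, its other higher call, had reads in a single library. For Kcna5, a delayed rectifier, island reads were 125.7 and 123.6 RPM at 20% oxygen and 96.5 and 102.6 at 4%, while its window stayed covered at 96.5% to 100%. Both 4% libraries had fewer reads there, with a log2 difference of -0.45 (adjusted p 0.477 in edgeR). Kcnc2 had 475.5 and 485.9 against 505.8 and 696.3 RPM, the set 2 library at 4% standing above the other 3, and its log2 difference was -0.28 with that offset.

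The promoter state differed between oxygen levels in both libraries of each in 4 members, where the background over all genes was 1.68%. Kcnab3, a beta subunit, and Kcnu1, the sperm potassium channel, went from H3K4me3 without H3K27ac to active. At 20% oxygen the end used for Kcnab3 had 0 and 189 bp of H3K27ac, against 255 and 1136 bp at 4%. Kcnu1 had 26 and 18 bp against 237 and 268 bp. Both lack a RefSeq start and have other genes in the window, so the end used may belong to a neighbour. Kcnmb4, the neuronal BK subunit, went from active to H3K4me3 without H3K27ac, with 250 and 363 bp of H3K27ac at its start against 0 and 0. Kcnh1, the channel EAG1, went from bivalent to H3K27me3 only: its H3K4me3 was 563 and 673 bp wide at 20%, against 0 and 173 bp at 4%, and H3K27me3 stayed on its start in all 4 libraries. Several of these lengths lie near the 200 bp line. The oxygen-sensing candidates Kcnma1 and Kcnk3 were active at both levels; in Kcnma1, H3K27ac covered 3.57% and 5.39% of the window at 20% oxygen and 3.55% and 5.19% at 4%, with overlapping groups.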

How the data were processed

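ChIP-seq of 5 marks in N1E115 cells gave 20 libraries, grouped by the mark, oxygen level and suffix in the sample titles. The submitters' processing notes name BWA, Picard, MACS2, SICER and mm10; versions are not given in the sources used here. Calling was done for each library alone, per the file headers. The deposited lists of H3K4me3, H3K27ac and H3K4me1 are MACS2 intervals with a −log10 score made by the authors. Those of H3K36me3 and H3K27me3 are SICER islands with whole numbers, read as deposited read counts per island; island ends were taken as inclusive, since every length is then a multiple of 200 bp. For set 2, MACS2 intervals came from the list whose scores and summits matched the deposited 1 bp summits.

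Covered shares were computed in Python (numpy 2.4.6, pandas 2.3.3) for the gene body and 10 kb either side, promoter states within 1000 bp of the start (at least 200 bp covered) and body classes at 25%. Island reads were shared out by overlap, over the body for H3K36me3 and the window for H3K27me3, rounded, and tested across all genes with edgeR 4.0.16 (quasi-likelihood, TMM, filterByExpr, Benjamini-Hochberg, R 4.3.3), with DESeq2 1.42.0 as an alternative. The fit was also run on simulated counts with a dispersion of 0.01. There it recovered 98% and 96% of changes by a factor of 2 in H3K36me3 and H3K27me3. In the data the common dispersion, the squared coefficient of variation between libraries beyond counting error, was estimated at 0.446 in H3K36me3 and 1.03 in H3K27me3. The simulation was thus far less variable than the data and cannot tell what the fit would find here.

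Named genes were the 5 members with the highest cover per mark, the 5 with the widest gap per mark and direction, those whose state moved, those past the edgeR threshold, the leading members of each subfamily, and a short list that included Kcnh2, Kcnh1, Kcnq3, Kcnk3, Kcna2, Kcnma1 and Kcnj11. Some genes that these rules name are not reported here. Members and lists were chosen with earlier results of these data known. Grouping of neighbours within 350 kb was added after seeing the data.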

Additional observations from a re-analysis of the deposited data

How the results depend on the processing

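The counts of members that separate by oxygen depend on the window, on the size of difference asked for and on the number of libraries. With the gene body alone, 6 members separated in H3K4me3 in place of 10, and 4 in H3K27ac in place of 14, while over all genes the share went from 14.2% to 15.4% and from 20.6% to 18.1%. When a difference of at least 5 percentage points was asked for, 0 remained in H3K4me3, 0 in H3K27ac, 10 in H3K4me1, 2 in H3K36me3 and 6 in H3K27me3, against 0.0274%, 0.452%, 6.89%, 5.06% and 3.71% of all genes. With equal peak numbers per library, 8 separated in H3K27me3 in place of 16 (9.11% of all genes in place of 9.97%). Genes without H3K27me3 in any library, more frequent among all genes than among members, cannot separate in that mark. Leaving out 1 library in turn leaves fewer values to separate and gave 29 to 36 members in H3K4me3, 29 to 37 in H3K27ac, 21 to 33 in H3K36me3 and 29 to 36 in H3K27me3, against 37.5% to 47.1%, 38.2% to 48.0%, 33.7% to 40.2% and 18.4% to 23.2% of all genes, and the H3K4me1 count stayed within 1.5 times of 36. The counts of active, bivalent and H3K27me3-only promoters, and of body classes, stayed within 1.5 times of the reported count in every alternative run. The counts of H3K4me3 without H3K27ac and of neither were not run under alternatives.

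Of read counts, DESeq2 called 2 members in H3K36me3 and 11 in H3K27me3 where edgeR called 0. The libraries of a set share only a label suffix, and the correlation of their deviations from the group means was 0.233 in H3K36me3 and 0.565 in H3K27me3. With the replicate block edgeR called 0 members in either mark, and 0 genes in all. Among genes at least 90% covered in every library, a fit with the replicate block, chosen after seeing the data, called 2 of 6 members in H3K27me3 (Kcng4 with a log2 difference of 0.29 and Kcnip1 with -0.19) and 0 of 1 in H3K36me3, against 177 of 651 and 273 of 2968 genes. As reported and with the block alone, Kcng4 was at 0.036 and 0.048 and Kcnip1 at -0.43 and -0.43, none past the threshold.

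Of 42 named covered-share results, 284 alternative values kept direction and size, 50 moved by more than the spread and 2 reversed: Kcnmb3 in H3K4me3 was higher at 4% by 0.052 points over the body alone and by 0.041 with 5 kb either side. Of 16 named read results, 9 values reversed. Kcnc2 in H3K27me3 was at -0.28 (log2) with the covered-length offset and between -0.016 and 0.43 when 1 library was left out, the lowest without the set 2 library at 4%. Kcng2 was at -0.088 with that offset. Kcnj11, at -0.014 in edgeR as reported, was at 0.015 with DESeq2, 0.014 with RLE size factors and 0.016 without a filter, and between -0.12 and 0.095 when 1 library was left out. The cause was not tested. Depth is unknown for 3 marks.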
